A study of Mus musculus with 12 samples.

Results

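The genes described here are 35 genes of microglia and related macrophages, chosen by their symbols from the 37991 Ensembl genes in the count tables. They were grouped by textbook role into 11 homeostatic genes, 11 genes of activation and phagocytosis, the 3 chains of complement C1q, 2 transcription factors, 6 leukocyte membrane, signalling and cytoskeleton genes, and 2 others (*Mrc1* and *Csf3r*) known from perivascular macrophages and granulocytes. All 35 passed the expression filter of edgeR, with which 16399 genes were tested.

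Poly(A) RNA was sequenced from hippocampi of C57BL/6N mice aged 6 to 7 months, killed 1 h after the passive avoidance (PA) test, in which a foot shock follows entry into a dark chamber. There were 6 libraries labelled Wildtype and 6 labelled *Gadd45a*-KO, from siblings bred from heterozygous parents. In the knockout line, a neomycin cassette takes the place of exons 1 to 3 of *Gadd45a*, a stress-induced gene, while exon 4 remains in all cells of the animal. Every mouse was trained, so these libraries hold no comparison with untrained animals.

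Reads counted on the targeted gene were higher, not lower, in the libraries labelled *Gadd45a*-KO. *Gadd45a* (ENSMUSG00000036390) had 2.19 to 3.43 CPM (reads scaled to library size) in the 6 libraries labelled Wildtype. In the 6 labelled *Gadd45a*-KO it had 20.5 to 23.1 CPM, a difference of 3.06 on the log2 scale (edgeR, adjusted p = 1.33e-10). Counts per gene do not separate the exons that were removed from the exon that remained. Libraries are therefore named by label throughout, and every direction below is that of the label.

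Microglia are the resident macrophages of brain tissue, and they keep their number through signals of the receptor *Csf1r*. In healthy tissue they express surface receptors by which they sense neurons and purines, together with the transcription factor *Sall1*, often called the homeostatic set. In injury or disease many of these genes are lowered, while genes of phagocytosis, lysosomes and antigen uptake rise, partly through the receptor *Trem2* and its adaptor *Tyrobp*. The comparison asked whether homeostatic and activation genes differed between the labels, in a hippocampus that is mostly neurons and other glia.

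The genes were plainly present in every library, at levels that spanned 168-fold. Between 44594261 and 55540601 gene reads per library left the weakest of them, *Tlr2*, with at least 26 reads. None of the 35 passed 1% FDR, against 2.65% of all genes tested (0.0244% higher and 2.62% lower in the libraries labelled *Gadd45a*-KO), and none passed 5% FDR, against 4.55% of all genes. DESeq2 also called 0 at both thresholds. At an unadjusted p under 0.05, edgeR gave 6 members higher and 0 lower, where 4.34% of all genes were higher and 9.35% lower. A log2 fold change above 0 was found in 31 of 35 members (88.6%), against 51.8% of all genes, and the median was 0.08 over the members and 0.00 over all genes. The members share a cell type and the same libraries, so these are not 35 separate observations. No member had groups that did not overlap, against 3.31% of all genes.

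These fold changes were small, and their intervals were narrow. The 95% interval of the fold change lay within 0.25 on the log2 scale of no change for 23 members and within 0.5 for 33, the exceptions being *Tlr2* and *Mrc1*. Its lower and upper ends enclosed 0 for 29. Since the tissue is bulk hippocampus, fewer cells of a type and less RNA per cell cannot be told apart in any of these values. With 6 libraries a label, p-values set the difference between the labels against the spread between these samples. The smallest possible two-sided exact permutation p is 0.00216.

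Many macrophage genes are known targets of PU.1, the product of *Spi1*, which binds purine-rich letters of the ETS type. RefSeq start-site windows (GRCm38.p6, from 250 bases before to 50 bases after the start) were found for 27 members. The letters GAGGAAGT, on either strand, stood in the windows of 4 of these 27 (14.8%) and of 3.69% of 27025 genes. The 4 stretches are shown because *Ctss* is the most abundant member per kb of exon and the one with the lowest adjusted p, and the others are a C1q chain and a pair of leukocyte genes. Each is printed 5′ to 3′ on the strand of the gene with the matching letters in capitals, and a position of 0 is the annotated start.
Ctss: aatgaaagttcACTTCCTCattgtggatgc
C1qc: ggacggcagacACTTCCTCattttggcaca
Inpp5d: gtttctataatGAGGAAGTtctgtgcagct
Cd53: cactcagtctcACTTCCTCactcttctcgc

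The stretch of *Ctss* lies at chr3:95526773-95526802 on the plus strand with the letters beginning at position -2. That of *Inpp5d* lies at chr1:87620281-87620310 on the plus strand, beginning at -20. *C1qc* has them far upstream, at -195 (chr4:136893091-136893120, minus strand), and *Cd53* just inside the transcript, at 6 (chr3:106790125-106790154, minus strand). In *Ctss*, *C1qc* and *Cd53* the capitals read as the reverse complement. The composite ETS and interferon regulatory factor element was found in 1 of 27 members (*Cd68*, 3.70%) and in 3.16% of all genes. A match describes letters only, and binding was not measured here.

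Levels between genes were compared per length, as CPM per kb of annotated exon averaged over 12 libraries. *Ctss*, a lysosomal cysteine protease, led at 45.7 CPM per kb, followed by *C1qb* (34.3), *C1qa* (33.2) and the adaptor *Tyrobp* (21.0). The purinergic receptor *P2ry12* (17.6) and *Csf1r* (17.4) came next, then *C1qc* (14.5) and the fractalkine receptor *Cx3cr1* (14.2). At the low end stood *Spi1* (0.790), *Irf8* (0.578), *Ptprc* (0.57), *Tlr2* (0.295) and *Mrc1* (0.272). Of the 34 neighbouring pairs in this order, 19 differed by no more than the larger SD of the pair, *P2ry12* and *Csf1r* among them. The length is the union of all annotated exons, so genes with long alternative exons are placed lower than their main transcript would be.

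**Figure D1:**
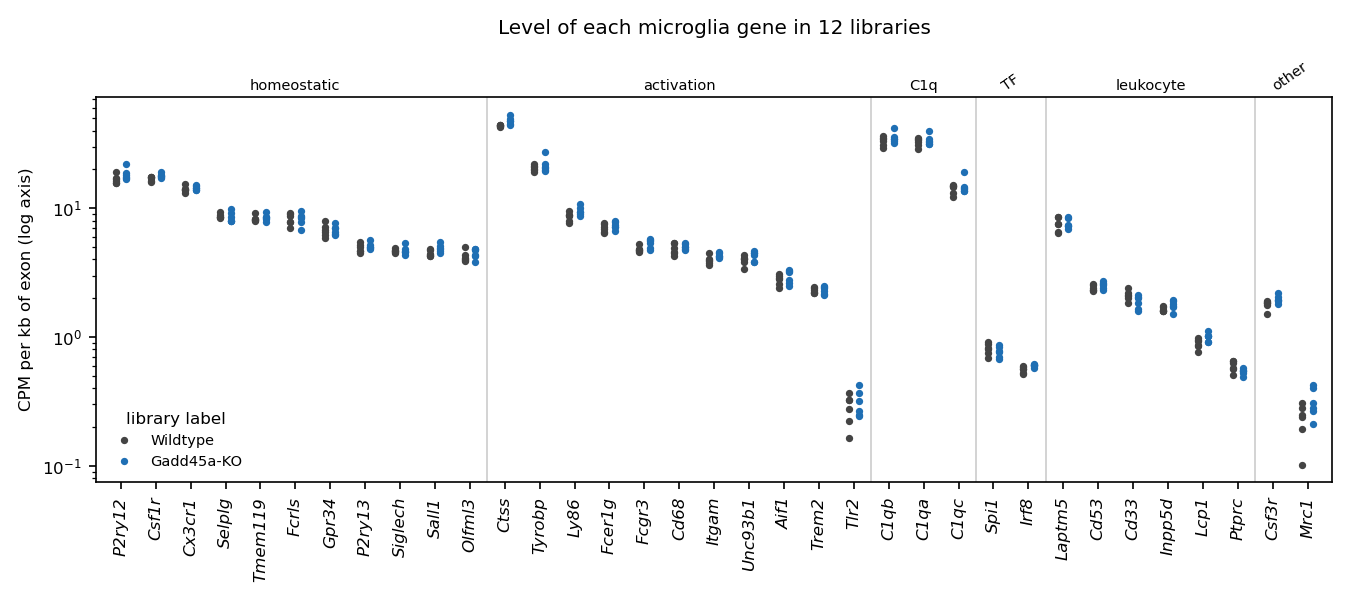
Level of each of 35 genes (CPM per kb of exon, log axis) in each of 12 libraries, by role and by label (grey Wildtype, blue *Gadd45a*-KO). Levels run from 0.272 for *Mrc1* to 45.7 CPM per kb for *Ctss*, and the points of the labels overlap for every gene. TF stands for transcription factors, and "other" for *Csf3r* and *Mrc1*.

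Of the 11 homeostatic genes none was called, 10 lay above 0, 1 (*Sall1*) had an unadjusted p under 0.05, and their median log2 fold change was 0.03, or 0.07 without Wildtype replicate 6. *Csf1r*, the receptor for colony stimulating factor 1 and interleukin 34, ranged from 84.1 CPM (median 90.6) to 91.3 in Wildtype libraries and from 89.2 (median 93.1) to 100.2 in those labelled *Gadd45a*-KO. The ranges overlapped, although 4 of 6 libraries labelled *Gadd45a*-KO lay above every Wildtype library. The log2 fold change of *Csf1r* was 0.08 (standard error 0.04, adjusted p = 0.366, edgeR).

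*P2ry12*, the receptor that guides microglial processes towards released nucleotides, had 37.2 to 45.3 CPM (median 39.1) in Wildtype libraries and 40.3 to 52.2 (median 42.5) in those labelled *Gadd45a*-KO. All 6 of the latter lay above the Wildtype mean, but only replicate 6 lay above every Wildtype library. Its log2 fold change was 0.13 (adjusted p = 0.385), or 0.09 without that library. *P2ry13*, a purinergic receptor encoded next to it on the minus strand of chromosome 3 (NCBIM37, 59011818 to 59014804, with *P2ry12* at 59020193 to 59066753), differed by 0.05. Both genes sit inside *Med12l*, which runs on the opposite strand and shares no exon bases with them.

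*Sall1*, a zinc finger factor that marks microglia among macrophages, had the lowest adjusted p of the homeostatic genes. It ranged from 22.4 to 25.2 CPM (median 23.1) in Wildtype libraries and from 23.7 to 28.6 (median 25.6) in those labelled *Gadd45a*-KO. Of the latter 4 of 6 lay above every Wildtype library, the highest being replicate 3. Replicate 6, the highest of all libraries for 7 homeostatic genes, was here the lowest of its label and lay within the Wildtype range. The log2 fold change came to 0.13 (standard error 0.05, 95% interval 0.03 to 0.24, unadjusted p = 0.0176, adjusted p = 0.209, edgeR).

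*Tmem119*, a membrane protein used to tell microglia from blood-derived macrophages, had 19.2 ± 1.09 CPM (SD, n = 6) in Wildtype libraries and 19.6 ± 1.09 in those labelled *Gadd45a*-KO, and the difference on the log2 scale was 0.03 (95% interval -0.08 to 0.13). *Cx3cr1*, which binds the neuronal ligand fractalkine, gave 52.3 ± 2.59 and 53.5 ± 2.07 CPM, a log2 fold change of 0.03 (-0.05 to 0.12). For *Siglech*, a sialic acid-binding lectin, the interval ran from -0.10 to 0.12 around 0.01. In fold terms the interval of *Tmem119* ran from 0.948 to 1.09, that of *Cx3cr1* from 0.967 to 1.08 and that of *Siglech* from 0.936 to 1.09.

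*Fcrls*, an Fc receptor-like scavenger protein, and *Gpr34*, a lysophospholipid receptor, had log2 fold changes of 0.00 and 0.02. *Olfml3*, a secreted olfactomedin-like protein, gave 0.09, with exons that share 110 nt with a non-coding gene on the same strand. *Selplg*, the selectin ligand PSGL-1, was the only homeostatic gene below 0, at -0.02, with 3 of 6 libraries labelled *Gadd45a*-KO below every Wildtype library and 1 above. The sign of *Selplg* turned with the scaling, that of *Fcrls* with the length offset, and those of all but *Olfml3* here, and of *Siglech*, with a left-out library.

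All 11 activation and phagocytosis genes lay above 0, with a median log2 fold change of 0.11, and 4 of them had an unadjusted p under 0.05. None passed the adjusted threshold. *Ctss* had 58.4 to 60.5 CPM (median 59.2) in Wildtype libraries and 59.9 to 72.4 (median 64.2) in those labelled *Gadd45a*-KO. Of the latter 5 of 6 lay above every Wildtype library and the lowest lay inside their range. The Wildtype libraries were tight, at 59.3 ± 0.948 CPM (SD, n = 6) against 64.7 ± 4.54. The log2 fold change of 0.12 (standard error 0.04, unadjusted p = 0.01003, adjusted p = 0.149, edgeR) was the one with the lowest adjusted p of all 35. A two-sided exact permutation test of its mean log2 CPM gave p = 0.00866, unadjusted. *Ctss* lies on the plus strand of chromosome 3 of NCBIM37, from 95330708 to 95360325.

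The next 3 were receptors of innate immunity. *Itgam*, the integrin chain CD11b of complement receptor 3, had 23.1 to 28.5 CPM (median 25.0) in Wildtype libraries and 26.4 to 29.0 (median 27.1) in those labelled *Gadd45a*-KO. All 6 of the latter lay above the Wildtype mean, and 1 above every Wildtype library. Its log2 fold change was 0.12 (unadjusted p = 0.0207, adjusted p = 0.231, edgeR). *Fcgr3*, a low-affinity Fc gamma receptor, had 7.94 to 9.21 CPM (median 8.21) against 8.23 to 10.1 (median 9.51). Here 4 of 6 libraries labelled *Gadd45a*-KO exceeded every Wildtype library, and the log2 fold change was 0.16 (unadjusted p = 0.0226, adjusted p = 0.243, edgeR). *Ly86*, the partner MD-1 of a Toll-like receptor homologue, gave 0.15 (unadjusted p = 0.0380, adjusted p = 0.322, edgeR), with 7.61 to 9.47 CPM against 8.73 to 10.7.

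*Trem2*, the lipid-sensing receptor, had 10.8 to 12.1 CPM (median 11.2) in Wildtype libraries and 10.5 to 12.2 (median 11.5) in those labelled *Gadd45a*-KO. The ranges lay almost on top of each other, and the log2 fold change was 0.00 with an interval from 0.927-fold to 1.08-fold and a sign that turned with left-out libraries. *Tyrobp*, the signalling adaptor of *Trem2*, had 10.7 to 12.4 CPM against 10.9 to 15.3, and its log2 fold change of 0.08 (adjusted p = 0.758) includes the high value of replicate 6, without which it was 0.01. The ratio of *Trem2* to *Tyrobp* CPM was 0.986 ± 0.0539 and 0.944 ± 0.103 (SD, n = 6, two-sided exact permutation p = 0.387, adjusted 0.581 over 6 ratios of members).

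*Cd68*, a lysosomal membrane protein of phagocytes, and *Fcer1g*, the common gamma chain of Fc receptors, each differed by 0.06. *Aif1*, the calcium-binding protein IBA1, gave 0.08, and *Unc93b1*, which carries nucleic acid-sensing Toll-like receptors to endosomes, gave 0.11. *Tlr2*, a receptor for bacterial lipoproteins, had the weakest counts, 26 to 65 reads a library. It ranged from 0.494 to 1.10 CPM (median 0.903) in Wildtype libraries and from 0.741 to 1.28 (median 0.884) in those labelled *Gadd45a*-KO. The ranges overlapped almost wholly, and at this depth the interval of 0.835-fold to 1.51-fold leaves room for larger differences than in any other activation gene.

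**Figure D2:**
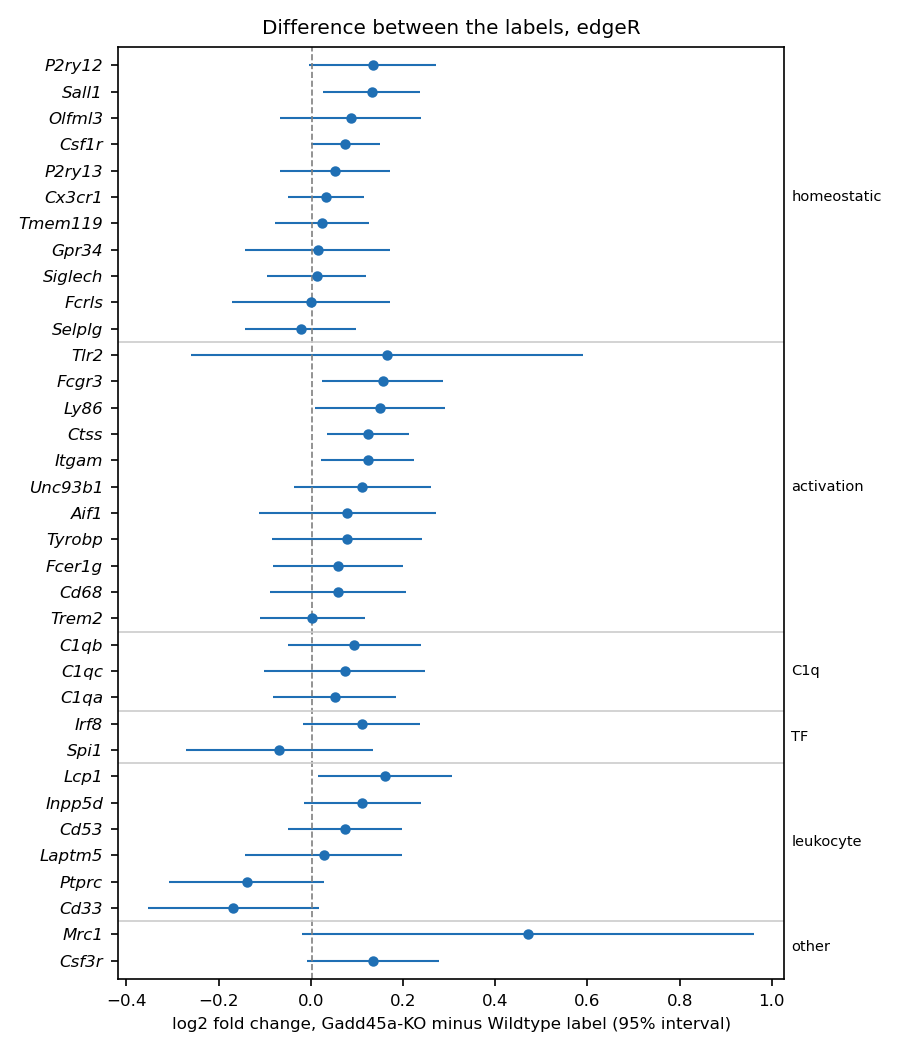
Log2 fold change (libraries labelled *Gadd45a*-KO minus Wildtype) of each of 35 genes with its 95% interval from edgeR, ordered by role, and the median of all 16399 genes as a dashed line. Points of the 11 activation genes lie at or to the right of the line, most intervals cross it, and the intervals of *Tlr2* and *Mrc1* are the widest.

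Homeostatic and activation genes were then set against each other within each library, as the mean log2 CPM of the 11 genes minus the Wildtype mean. The homeostatic mean was 0.00 ± 0.05 (SD, n = 6) in Wildtype libraries and 0.05 ± 0.07 in those labelled *Gadd45a*-KO. The activation mean was 0.00 ± 0.07 and 0.10 ± 0.06. Both means overlapped between the labels, since Wildtype replicate 6 reached 0.11 for activation genes and replicate 3 labelled *Gadd45a*-KO stood at 0.01. The difference of the means within a library, homeostatic minus activation, ran from -0.05 to 0.11 in Wildtype libraries and from -0.12 to -0.01 in those labelled *Gadd45a*-KO, with group means of 0.00 ± 0.06 and -0.05 ± 0.04. These scores are given as description, without a test.

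**Figure D3:**
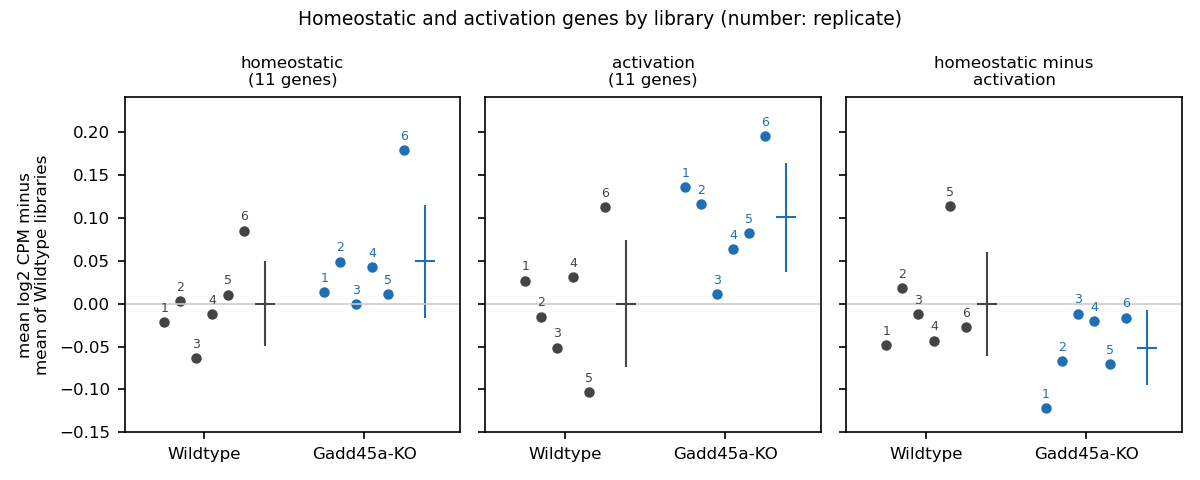
Mean log2 CPM of 11 homeostatic genes, of 11 activation genes, and their difference in each library, relative to the Wildtype mean. Numbers are replicates, and bars show mean ± SD of 6 libraries. Replicate 6 of each label is the highest of its label in the left and middle panels, and the labels overlap in all 3 panels.

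The chains of C1q, the recognition protein of the classical complement pathway that microglia supply to the brain, are encoded side by side on the minus strand of chromosome 4 (NCBIM37, *C1qb* from 136436044, *C1qc* from 136445719 and *C1qa* ending at 136454718). *C1qa* had 29.96 to 36.6 CPM (median 34.7) in Wildtype libraries and 32.5 to 41.4 (median 34.3) in those labelled *Gadd45a*-KO. *C1qb* had 31.6 to 39.4 (median 36.9) and 35.1 to 46.0 (median 37.6). For *C1qc* the values were 23.7 to 29.3 (median 28.5) and 26.2 to 36.7 (median 27.4). In all 3 genes Wildtype replicate 5 was the lowest library and replicate 6 labelled *Gadd45a*-KO the highest, and it was the only library of its label above every Wildtype library. The log2 fold changes were 0.05, 0.09 and 0.07, with adjusted p = 0.818, 0.620 and 0.798 (edgeR). Without that library they were 0.01, 0.05 and 0.00.

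Proportions of the chains were taken in each library. Over all 12, *C1qa* to *C1qb* ran from 0.835 to 0.976 and *C1qc* to *C1qb* from 0.673 to 0.799. The ratio of *C1qa* to *C1qb* CPM was 0.942 ± 0.0306 (SD, n = 6) in Wildtype libraries and 0.915 ± 0.0550 in those labelled *Gadd45a*-KO (two-sided exact permutation p = 0.312, adjusted 0.581). The ratio of *C1qc* to *C1qb* was 0.757 ± 0.0228 and 0.744 ± 0.0447 (exact permutation p = 0.537, adjusted 0.644).

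Of the transcription factors, *Spi1* encodes PU.1, which macrophages need to form, and *Irf8* encodes a partner of it. *Irf8* had 3.62 to 4.18 CPM (median 3.96) in Wildtype libraries and 4.09 to 4.35 (median 4.26) in those labelled *Gadd45a*-KO. The libraries labelled *Gadd45a*-KO clustered tightly at the upper end, 4 of 6 above every Wildtype library. By edgeR its log2 fold change was 0.11 (adjusted p = 0.454), while the exact permutation test of its mean log2 CPM gave a two-sided p = 0.0108, unadjusted. Such tests were run for every member but not over all genes, so no share of all genes stands beside their count. Among the 35 members 9 gave an unadjusted p under 0.05, *Ctss* and *Irf8* having the lowest. The spread of *Irf8* within a label, a CV of 4.29%, was below the 7.04% that counting error alone would give. *Spi1*, with 83 to 122 reads a library, had a log2 fold change of -0.07 (-0.27 to 0.14) and widely overlapping ranges of 1.85 to 2.49 and 1.82 to 2.33 CPM.

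The leukocyte genes went both ways. *Lcp1*, the actin-bundling protein L-plastin, had 7.33 to 9.33 CPM (median 8.52) in Wildtype libraries and 8.64 to 10.5 (median 9.62) in those labelled *Gadd45a*-KO, with 4 of 6 above every Wildtype library. Its log2 fold change was 0.16 (unadjusted p = 0.0331, adjusted p = 0.298, edgeR), and its exons overlap 2 non-coding genes on the opposite strand. *Inpp5d*, the lipid phosphatase SHIP1, gave 0.11 and the tetraspanin *Cd53* gave 0.07.

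Lower values were found for *Ptprc* and *Cd33*. *Ptprc*, the leukocyte phosphatase CD45, had 2.94 to 3.79 CPM (median 3.501) in Wildtype libraries and 2.86 to 3.34 (median 3.18) in those labelled *Gadd45a*-KO, none of which lay above the Wildtype mean. Its log2 fold change was -0.14 (-0.31 to 0.03, adjusted p = 0.487, edgeR). *Cd33*, an inhibitory sialic acid-binding receptor, had 4.75 to 6.19 CPM (median 5.38) against 4.09 to 5.43 (median 4.95), with 3 of 6 libraries labelled *Gadd45a*-KO below every Wildtype library. Its log2 fold change was -0.17 (-0.35 to 0.02, adjusted p = 0.430, edgeR). *Laptm5*, a lysosomal membrane protein of blood cells, was at 0.03, with a CV within a label of 10.7% and a sign that turned without Wildtype replicate 3 or 5.

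Single libraries stood apart within their label. Replicate 6 labelled *Gadd45a*-KO was the highest of all 12 libraries for 19 of 35 genes, among them 7 homeostatic genes, 6 activation genes and all 3 of C1q. *Tyrobp* reached 15.3 CPM there, against 10.9 to 12.3 in the other libraries of its label, and *P2ry12* reached 52.2 against 40.3 to 44.2. Wildtype replicate 6 was the highest of its label for 13 genes, and Wildtype replicates 5 and 3 were the lowest of all 12 for 9 and 8. Without replicate 6 labelled *Gadd45a*-KO, 26 of 35 genes lay above 0 and the median log2 fold change was 0.05.

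**Figure D4:**
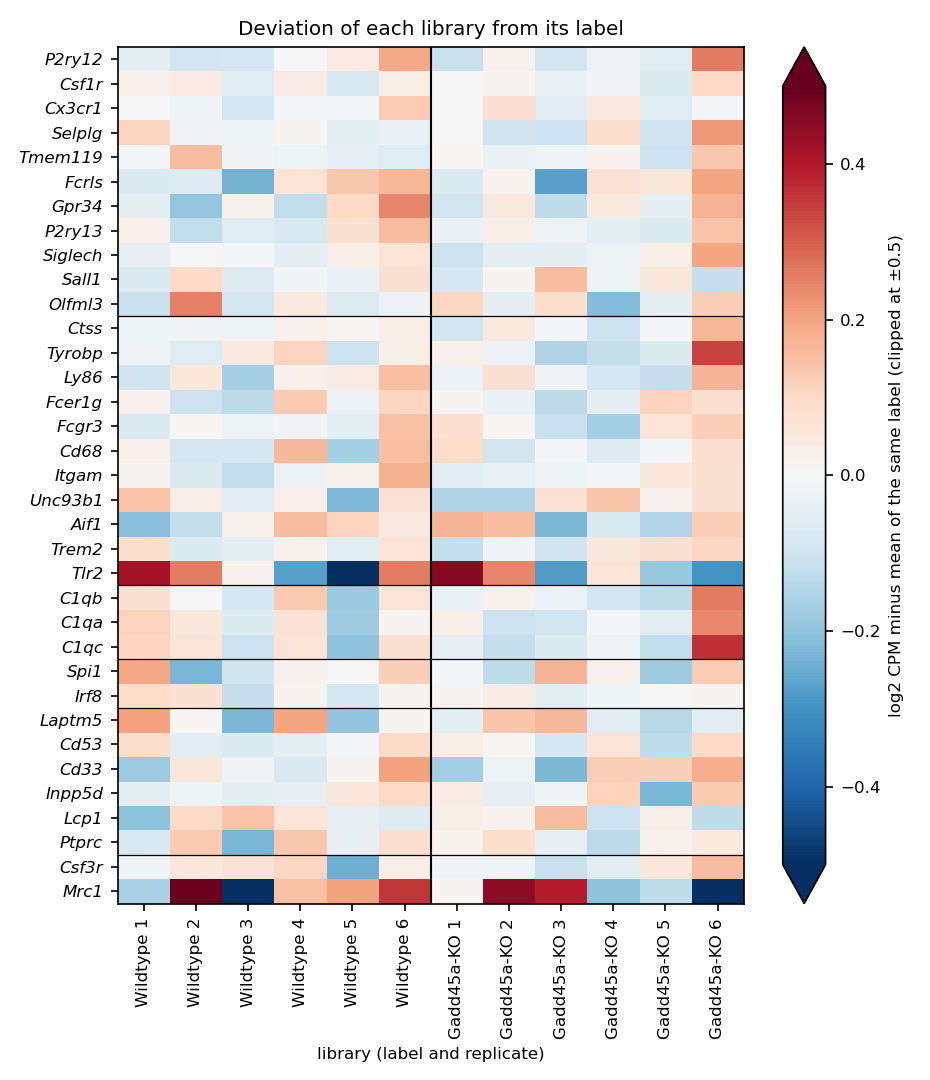
Deviation of each library from the mean of its label (log2 CPM, colours clipped at 0.5 either way) for 35 genes in rows and 12 libraries in columns. The column of replicate 6 labelled *Gadd45a*-KO is red for most homeostatic, activation and C1q genes, and the rows of *Tlr2* and *Mrc1* show the largest deviations.

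Most genes were steady within a label. The CV within a label ran from 3.87% for *Csf1r* to 28.6% for *Mrc1*, with a median of 7.67%, and it was under 10% for 26 of 35. Counting error made up most of that variance in 7.

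*Mrc1*, the mannose receptor of perivascular macrophages, had the largest fold change of the 35 and the least certain. It ranged from 0.606 to 1.83 CPM (median 1.45) in Wildtype libraries and from 1.25 to 2.51 (median 1.76) in those labelled *Gadd45a*-KO, from 33 to 125 reads. The ranges overlapped, 3 of 6 libraries labelled *Gadd45a*-KO lying above every Wildtype library. The log2 fold change came to 0.47 (standard error 0.23, 95% interval -0.02 to 0.96, adjusted p = 0.397, edgeR).

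*Mrc1* varied with other perivascular macrophage genes. Over 12 libraries, each taken relative to its label, its log2 CPM correlated with the mean of 7 perivascular markers at Pearson's r = 0.909 (permutation p = 0.00011, adjusted 0.00044) and Spearman's rho = 0.979 (permutation p = 2e-05, the lowest of 4 relations computed, adjusted 8e-05). Without the 2 libraries farthest from the median r was 0.926. With the mean of the homeostatic genes r was 0.0716 and rho 0.245, and r was 0.618 without the 2 farthest libraries, so that value rests on these and is given without a test. Among the 7 markers, *Stab1*, a scavenger receptor, had 15.4 CPM on average in Wildtype libraries and 16.5 in those labelled *Gadd45a*-KO. *F13a1*, *Cd163* and *Lyve1* were all under 2 CPM. None of the 7 was called, 5 lay above 0, and their median log2 fold change was 0.27. Below 0 were *Ms4a7* at -0.21 and *Pf4* at -0.06, named after their values were seen.

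**Figure D5:**
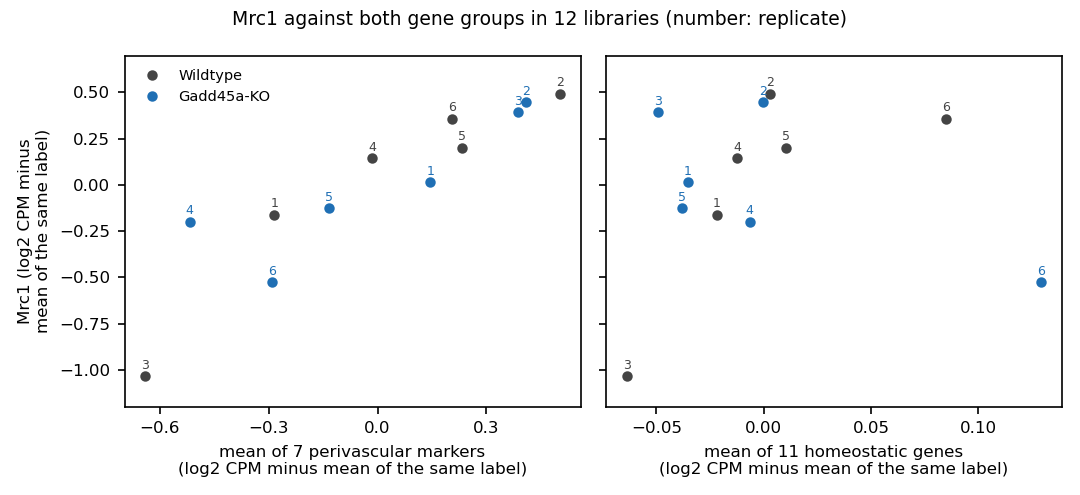
*Mrc1* in each of 12 libraries against the mean of 7 perivascular markers (left) and of 11 homeostatic genes (right), each as log2 CPM minus the mean of the same label. Numbers are replicates. The points line up on the left (r = 0.909), and on the right replicate 6 labelled *Gadd45a*-KO has the highest homeostatic mean and a low *Mrc1*.

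*Csf3r*, the receptor of granulocyte colony stimulating factor, had 6.22 to 7.94 CPM (median 7.60) in Wildtype libraries and 7.50 to 9.02 (median 8.002) in those labelled *Gadd45a*-KO. The difference was 0.13 on the log2 scale (adjusted p = 0.410, edgeR). Markers of the blood cells that also carry this receptor were almost absent. Summed over 7 genes of monocytes and neutrophils, *Ccr2*, *Ly6c2*, *S100a8*, *S100a9*, *Plac8*, *Ngp* and *Mpo*, they came to 0.294 to 0.579 CPM in Wildtype libraries and 0.177 to 0.391 in those labelled *Gadd45a*-KO, and 0 of 7 passed the filter. Of these, 5 were at 0 reads in at least 1 library.

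Lists of related function were compared in the same way, and none of their genes was called at 1% FDR. Of 18 genes that rise in disease-associated microglia, 15 were tested, 13 lay above 0 with a median of 0.11, and 2 had an unadjusted p under 0.05 and higher values. Their most abundant genes, which astrocytes or neurons also express, gave log2 fold changes of 0.03 for the lipoprotein *Apoe* and 0.04 and 0.06 for the lysosomal proteases *Ctsb* and *Ctsd*. The largest were 0.23 for the lysozyme *Lyz2* and 0.20 for the tetraspanin *Cd9* (unadjusted p = 0.0270, adjusted p = 0.269, edgeR). The other gene under 0.05 was the receptor kinase *Axl* at 0.11, named after its value was seen. *Cst7*, *Ccl3* and *Ccl4* were under the filter.

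Several cytokine genes were close to the limit of detection. *Il1b*, *Tnf*, *Il6*, *Ccl2* and *Cxcl10* fell under the filter, with at most 0.460 CPM in any library. Of 12 genes of this inflammatory list 7 were tested, and 1 (*Il18*, an interleukin processed by the inflammasome) had an unadjusted p under 0.05. *Il18* had a log2 fold change of 0.14 (adjusted p = 0.334, edgeR), *Ptgs2*, the inducible cyclooxygenase, 0.11 and the inhibitor *Nfkbia* -0.13. *Il1a* and *Nos2*, each under 1 CPM, gave 0.26 and 0.21.

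Of 10 interferon-induced genes 9 were tested, and all 9 had log2 fold changes above 0, with a median of 0.34. An unadjusted p under 0.05 was found for 6. *Oasl2*, an antiviral oligoadenylate synthetase-like protein, gave 0.31 (adjusted p = 0.163, the lowest of the list, edgeR), with 2.45 to 3.92 CPM in Wildtype libraries and 3.42 to 4.33 in those labelled *Gadd45a*-KO. The antiviral membrane protein *Ifitm3* gave 0.35. *Usp18* and *Isg15*, the protease and the ubiquitin-like protein of ISGylation, gave 0.44 and 0.39 at under 2 CPM.

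Of 16 ligands and receptors by which microglia are reached, 15 were tested and 12 lay above 0, with a median of 0.06. *Cx3cl1*, the fractalkine of neurons, gave -0.05 and the inhibitory receptor *Sirpa* 0.01. Complement *C4b* gave 0.27, with 28.9 to 35.3 CPM in Wildtype libraries and 31.5 to 46.8 in those labelled *Gadd45a*-KO (unadjusted p = 0.00472, adjusted p = 0.0869, edgeR). *Tgfbr2*, the type II receptor for TGF-beta, was the other gene of the list with an unadjusted p under 0.05, at 0.20, and was named after its value was seen. *C3* gave 0.38 with strongly overlapping values of 0.260 to 2.65 and 0.247 to 2.70 CPM.

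Markers of other cells in the dissected tissue were counted in the same libraries, and several lists had larger medians than the microglial genes. Oligodendrocyte genes had a median log2 fold change of 0.45 over 6 genes, with summed levels of 2030.5 to 3176 CPM in Wildtype libraries and 2631 to 6285 in those labelled *Gadd45a*-KO, the highest being replicate 3. Genes typical of the neighbouring thalamus had a median of 0.84 over 6, with sums of 92.8 to 127 and 94.0 to 419 CPM. The thalamic genes were highest in replicates 2 and 3 labelled *Gadd45a*-KO, and without both the median of the 35 genes was 0.10. Endothelial and mural genes were at 0.15 (7 of 7 above 0, sums of 235 to 293 and 265 to 301 CPM), astrocyte genes at 0.09 (sums of 1797 to 2195 and 1964 to 2165), neuronal genes at 0.02, choroid plexus genes at 0.48 over 5 and red blood cell genes at -0.26 over 5. Above 0 lay 6 of 6 astrocyte, 6 of 6 oligodendrocyte and 6 of 6 thalamic genes. The same held for 4 of 6 neuronal, 3 of 5 choroid plexus and 0 of 5 red blood cell genes. Of 6 lymphocyte genes 1 was tested. None of these genes was called at 1% FDR, and their part in the values of the 35 genes was not tested.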

How the data were processed

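Hippocampal poly(A) RNA from 12 mice was sequenced with a stranded kit. The authors aligned the reads with TopHat 1.4.1 to NCBIM37 (mm9), counted them per Ensembl gene with HTSeq 0.5.4p3 taking strand into account, and deposited the counts without normalization. The submitters' processing notes also list SAMtools and DESeq 1.16.0. The paper's methods give a younger age range for its mice than the labels do.

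Samples were grouped by the labels, 6 a group. Reads without a gene and ambiguous reads were left out. The former were 14.4% to 15.8% of unique alignments in Wildtype libraries and 13.0% to 14.3% in those labelled *Gadd45a*-KO, without overlap. The part of this difference in the values above was not tested. Genes were named from an NCBIM37 annotation of an earlier Ensembl release, which matched 37205 of 37991 IDs, *Spi1* through its older symbol Sfpi1. All listed genes were matched. Counts were filtered, scaled by TMM and tested with the quasi-likelihood test of edgeR 4.0.16 (R 4.3.3), without covariates, with Benjamini-Hochberg adjustment over 16399 genes at 1% FDR. Log2 CPM used a prior count of 2. Depth was 44594261 to 55540601 gene reads, and 1 read was 0.0180 to 0.0224 CPM. DESeq2 1.42.0 (a successor of the authors' DESeq), other scalings and filters, 5% FDR, the replicate number as a block, a transcript length offset (spline, 5 degrees of freedom) and leaving out each library were alternatives. The procedures were tested on simulated data. Exact permutation tests, and permutations within labels for correlations (100000 draws), used scipy 1.17.1 in Python 3.11.15.

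The members and lists were chosen with earlier results of these data known. All members are named, and from each other list the 3 genes with the highest mean CPM and the 2 with the largest fold change, except that some are not reported here. For the marker lists of neurons, glia, vessels, blood, choroid plexus and thalamus only list values are given.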

Additional observations from a re-analysis of the deposited data

Results flagged for a closer look

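In 8 of 70 gene and label groups, 1 library lay far from the other 5 by Dixon's criterion, where chance alone gives about 1 in 20, or 3.5. Replicate 6 labelled *Gadd45a*-KO accounts for 5 of them. It had 41.4 CPM for *C1qa* against 32.5 to 35.8 in the other libraries of its label, 46.0 CPM for *C1qb* against 35.1 to 39.0, and 36.7 CPM for *C1qc* against 26.2 to 28.2. In the same library *P2ry12* stood at 52.2 CPM against 40.3 to 44.2, and *Tyrobp* at 15.3 CPM against 10.9 to 12.3. The remaining 3 are Wildtype libraries. *Tmem119* was 21.4 CPM in replicate 2 against 18.4 to 19.1, *Fcgr3* was 9.21 CPM in replicate 6 against 7.94 to 8.39, and *Csf3r* was 6.22 CPM in replicate 5 against 7.31 to 7.94.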

How the results depend on the processing

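Under every scaling, filter, tool, block, offset and left-out library that was run, 0 of the 35 genes passed 1% FDR. At 5% FDR 1 passed in a pair of settings, *Itgam*, without Wildtype replicate 6 (adjusted p = 0.0333, edgeR) and with the length offset and replicate block together (adjusted p = 0.0376, edgeR). The lowest adjusted p of a member otherwise ran from 0.0509 to 0.312. The number of members with an unadjusted p under 0.05 and higher values, 6 in the test as reported, was 12 with upper-quartile factors, 10 with the length offset and 4 without replicates 2 and 3 labelled *Gadd45a*-KO, the last chosen after seeing the data. The share of all genes was taken only for the test as reported (4.34%), so the other counts have no background beside them.

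The count of all genes past 1% FDR, 434, was 678 with DESeq2, 264 with the length offset, 202 without replicates 2 and 3 labelled *Gadd45a*-KO, and 746 at 5% FDR, and it ran from 242 to 470 when single libraries were left out. The cause was not tested, beyond the fewer samples and the looser threshold. Leaving out libraries gave a median log2 fold change of 0.05 to 0.11 for the 35 genes, 0.03 to 0.07 for the homeostatic genes (highest without Wildtype replicate 6) and 0.08 to 0.13 for the activation genes. With upper-quartile factors the median of all genes was 0.03 and that of the 35 genes 0.10.

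Signs turned in 6 of 315 other values. *Fcrls* was at -0.0001 with the replicate block, -0.0070 with the length offset and -0.0068 with both, *Laptm5* at -0.0512 without replicates 2 and 3 labelled *Gadd45a*-KO, and *Selplg* at 0.0047 with upper-quartile factors and 0.0304 without those replicates. Leaving out single libraries turned 21 of 420 values in 7 genes, with ranges over the 12 of *C1qc* (-0.0003 to 0.1075), *Trem2* (-0.0080 to 0.0351), *Fcrls* (-0.0366 to 0.0582), *Laptm5* (-0.0068 to 0.0791), *Siglech* (-0.0202 to 0.0420), *Gpr34* (-0.0131 to 0.0741) and *Selplg* (-0.0579 to 0.0109).

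No source says that equal replicate numbers share a litter or day, so the numbers were not taken as pairs in the test as reported. Of 6 same-numbered pairs 5 correlated above 0.1, and what equal numbers may share was not tested. Correlations of same-numbered deviations were 0.127, 0.245, 0.262, 0.179, 0.103 and -0.0761 (mean 0.140), and 4 of 12 libraries correlated best with their own number. The mean for other numbers, -0.0279, is no separate baseline, because deviations from the label mean cancel within a label. With the number as a replicate block, 509 genes were lower and 5 higher at 1% FDR, 0 of them members. The median of the 35 genes was 0.07, of the homeostatic genes 0.03 and of the activation genes 0.11. The lowest adjusted p of a member was then 0.0713, for *P2ry12* (edgeR), against 0.385 for that gene without the block. Counting error was largest for *Tlr2*, *Mrc1* and *Spi1*, at a CV of 15.1%, 11.2% and 9.72%. Their CV within a label was 24.8%, 28.6% and 10.1%, so counting came close to the whole spread only in *Spi1* of these.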

Other observations

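Ratios of further member pairs were computed in each library. *P2ry12* to *Tmem119* CPM was 2.08 ± 0.241 (SD, n = 6) in Wildtype libraries and 2.23 ± 0.140 in those labelled *Gadd45a*-KO (two-sided exact permutation p = 0.195, adjusted 0.581 over 6 ratios). *Ctss* to *Csf1r* was 0.669 ± 0.0258 and 0.692 ± 0.0346 (exact permutation p = 0.236, adjusted 0.581). *Cd68* to *Cx3cr1*, a lysosomal against a homeostatic gene, was 0.116 ± 0.00897 and 0.118 ± 0.00906 (exact permutation p = 0.654, adjusted 0.654).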
